A study of Drosophila melanogaster with 9 samples.

Results

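Ovaries of Drosophila melanogaster females that carried the moe[NES] allele over the moe[G0415] allele, called the mutant, were compared with ovaries of females that carried moe[NES] over a w[1118] chromosome, called the NES heterozygote. The groups hold 3 libraries each, 6 of the 9 in the series, and were taken by the genotype in the labels. The fly gene Moe lies on the X chromosome, of which females have a pair. Both groups have 1 moe[NES] copy, and by the labels the genotypes differ in the other Moe copy. That copy is moe[G0415], described in the labels as a null allele, in the mutant, and comes from w[1118] in the NES heterozygote. The labels name w[1118] for the NES heterozygote and no w allele for the mutant. The Moe copy, the rest of that X chromosome and the background of the stocks therefore cannot be told apart in any difference below. The remaining 3 libraries, the null heterozygote (moe[G0415] with w[1118]), share the moe[G0415] allele with the mutant. All flies were 3 days old and reared at 25 °C, with the ovaries of 10 females pooled in a sample, and no heat treatment is named in the labels. The labels do not spell out what NES stands for or how the alleles were made. Nothing in them ties replicates to separate crosses, and p-values therefore describe only the spread of these samples, which may be technical.

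Moesin belongs to the ERM proteins (ezrin, radixin and moesin), which tie actin filaments to the plasma membrane and are switched on by phosphorylation and membrane lipids. In the fly ovary it lies at the cortex of the oocyte and of the epithelial follicle cells around it, and Moesin has also been described in nuclei. By its title, the series is about Moesin and the expression of heat shock genes. These genes code for chaperones that bind unfolded proteins, and their transcription is driven by heat shock factor from promoters at which RNA polymerase II waits paused. Some of the small heat shock protein genes are also switched on in the female germline during normal oogenesis. The whole ovary is a mixture of germline, follicle cells, muscle sheath and other cells, so fewer cells of a type and less RNA per cell cannot be told apart.

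Total counts ran from 34490427 to 43588466 in the 6 libraries compared. Levels below are counts per 1000000 counts of a library (CPM) after TMM scaling, which evens out differences in library makeup, and the 3 values of a group are given in the order of replicates 1, 2 and 3. Of 17558 gene identifiers, 8642 passed the filter on low counts and were tested. Germline genes such as osk (1957, 1560.2 and 1864 CPM in the mutant) and the follicle cell gene tj (175, 131 and 153 CPM) marked the tissue as ovary. The share of counts from eggshell and yolk genes was 5.94%, 4.06% and 5.26% in the mutant and 2.74%, 5.39% and 3.96% in the NES heterozygote, so the groups overlapped. Of 28 digestive tract genes, mainly trypsins and other digestive enzymes, 22 and 24 were detected in mutant replicates 1 and 3, at a summed 17.5 and 65.1 CPM. In mutant replicate 2 and the NES heterozygote replicates the sum was 0.370, 0.421, 0.474 and 0.291 CPM, and 3 of the 28 genes had no count in any library. The filter left 2 of these genes in the test, and none was called. Their part in other differences was not tested.

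Moe itself was examined first. Its level was 403, 385 and 439.9 CPM in the mutant and 619, 769 and 692 CPM in the NES heterozygote (chromosome X, 8873012 to 8898332, minus strand, BDGP6.54 annotation). Every mutant library lay below every NES heterozygote library (log2 fold change -0.76 with SE 0.11, adjusted p = 0.0218). The 3 mutant libraries averaged 409 ± 28.3 CPM (SD, n = 3), a mean near the 388 CPM of the null heterozygote. The adjusted p rose above 0.05 without any 1 of mutant replicates 1, 2 and 3 (0.138, 0.0915 and 0.0659) or without NES heterozygote replicate 2 or 3 (0.0814 and 0.0908). The fold change stayed between -0.84 and -0.68 in these and the other fits with 1 library left out. The white gene w, an ABC transporter gene needed for eye pigment and a frequent marker on P element transposons, stood at 42.8, 37.2 and 38 CPM in the mutant and 1.18, 0.296 and 1.78 CPM in the NES heterozygote (log2 fold change 5.17 with SE 0.49, adjusted p = 0.00259).

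A gene is called where edgeR's quasi-likelihood test, fitted to all 9 libraries, gave a Benjamini-Hochberg adjusted p under 0.05. By this rule 84 of 8642 genes (0.972%) changed between mutant and NES heterozygote, 50 higher (0.579%) and 34 lower (0.393%) in the mutant. The groups did not overlap for any of the 84, which selection by adjusted p in these same libraries favours. Of all tested genes, 13.5% did not overlap with the mutant higher and 11.4% with the mutant lower. Among the called genes, 24 of the 50 higher and 11 of the 34 lower differed by more than 4-fold, while 22 and 15 differed by less than 2-fold. The group with the lower level averaged under 1 CPM for 21 of the higher and 10 of the lower genes. This held for 20 of the 24 and 10 of the 11 genes with more than 4-fold. The count depended on the libraries in the fit. It was 34, 34 and 34 without mutant replicates 1, 2 and 3, 31, 30 and 28 without NES heterozygote replicates 1, 2 and 3, and 41, 259 and 42 without null heterozygote replicates 1, 2 and 3, which enter through the shared spread. A fit with mutant replicate 2 as the only mutant library leaves out the 2 libraries with digestive tract transcripts. A group of 1 library has little power to call genes, so its count says nothing about those transcripts. Their part in the calls was not tested. DESeq2 called 345 genes, among them all 84.

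**Figure D1:**
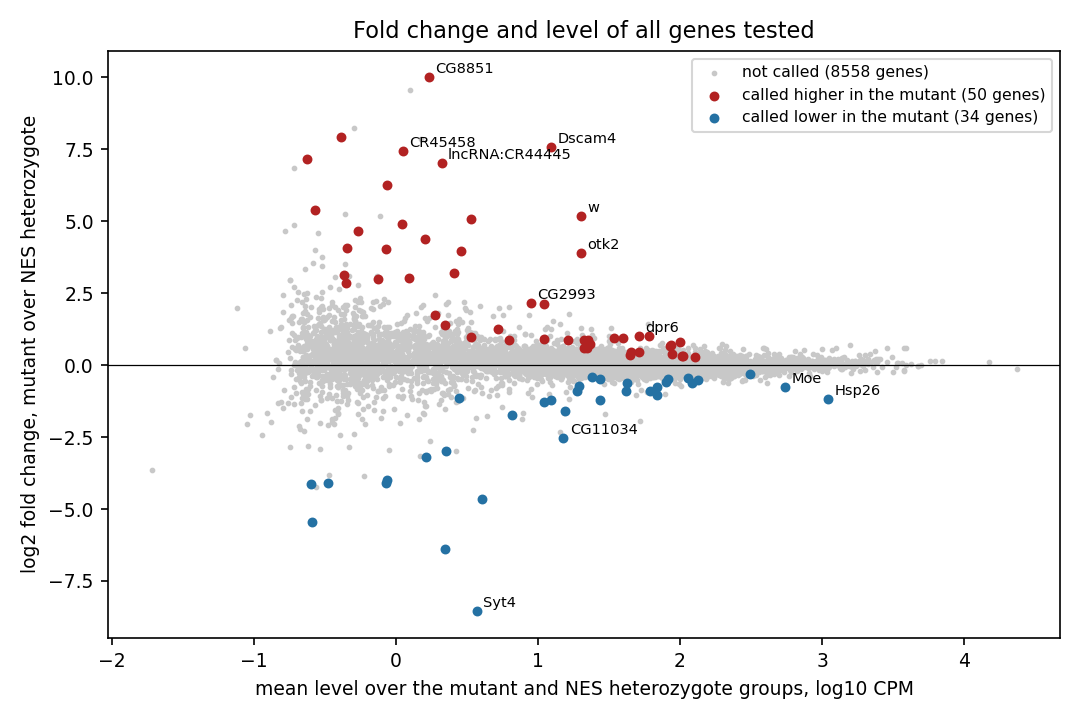
Each point is 1 of 8642 genes, with its mean level over the mutant and NES heterozygote groups (log10 CPM) against the log2 fold change of mutant over NES heterozygote. The 50 genes called higher (red) and 34 called lower (blue) include transcripts of low level with large folds and genes of high level with small folds, such as Hsp26 at -1.17 and Moe at -0.76.

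The lists of immunoglobulin surface proteins and of dpr and DIP proteins held 4 called genes, 3 higher and 1 lower, of 17 and 11 tested. Over all tested genes 0.579% were called higher and 0.393% lower. Dscam4, a member of the Dscam family of adhesion receptors that guide neurites, was at 24, 25 and 24.9 CPM in the mutant and 0.0281, 0.237 and 0.117 CPM in the NES heterozygote (log2 fold change 7.58 with SE 0.35, adjusted p = 6.95e-05). The null heterozygote libraries, at 21, 25.3 and 22.3 CPM, lay with the mutant. Dscam4 and CG11034 were the only genes called in all 19 alternative settings. The gene otk2, which codes for a receptor related to the Wnt co-receptor off-track, was at 36.9, 30.8 and 45.8 CPM in the mutant and 2.08, 3.02 and 2.56 in the NES heterozygote (log2 fold change 3.89 with SE 0.37, adjusted p = 0.00259). Here the null heterozygote, at 0.923, 2.6 and 2.51 CPM, lay with the NES heterozygote. For dpr6, of a family whose members bind DIP receptors on partner neurons, the values were 63.1, 64.6 and 77.9 and 34, 35.7 and 33.3 CPM, with no overlap (log2 fold change 1.0 with SE 0.10, adjusted p = 0.00283).

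The lower gene of this family was sns, the fly nephrin homologue needed for myoblast fusion. It had 1 count in the mutant and 52 in the NES heterozygote, a ratio of 60.8 with an exact 95% counting interval of 10.4 to 2445 (adjusted p = 0.0267). Its binding partners rst and kirre were not called, although the mutant was higher in every library. Levels of rst were 36.4, 27.6 and 32.6 CPM in the mutant and 15.2, 13 and 19.1 in the NES heterozygote (log2 fold change 1.03 with SE 0.23, adjusted p = 0.1), and those of kirre 17.5, 16.1 and 15.6 and 11.7, 5.75 and 11.3 (log2 fold change 0.77 with SE 0.24, adjusted p = 0.254). Over a list of 28 immunoglobulin surface proteins, 17 were tested and 15 of these had a log2 fold change above 0, with a median of 0.79. The list was chosen with earlier results of these data known, so its values are a description only. Over all tested genes 50.4% lay above 0 and the median was 0.00168. The dpr and DIP list had 11 tested members, 7 above 0, 1 called and a median of 0.45. Summed over its 32 members the level was 81.7 to 95.6 CPM in the mutant and 47.7 to 51.1 CPM in the NES heterozygote, most of it dpr6.

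**Figure D2:**
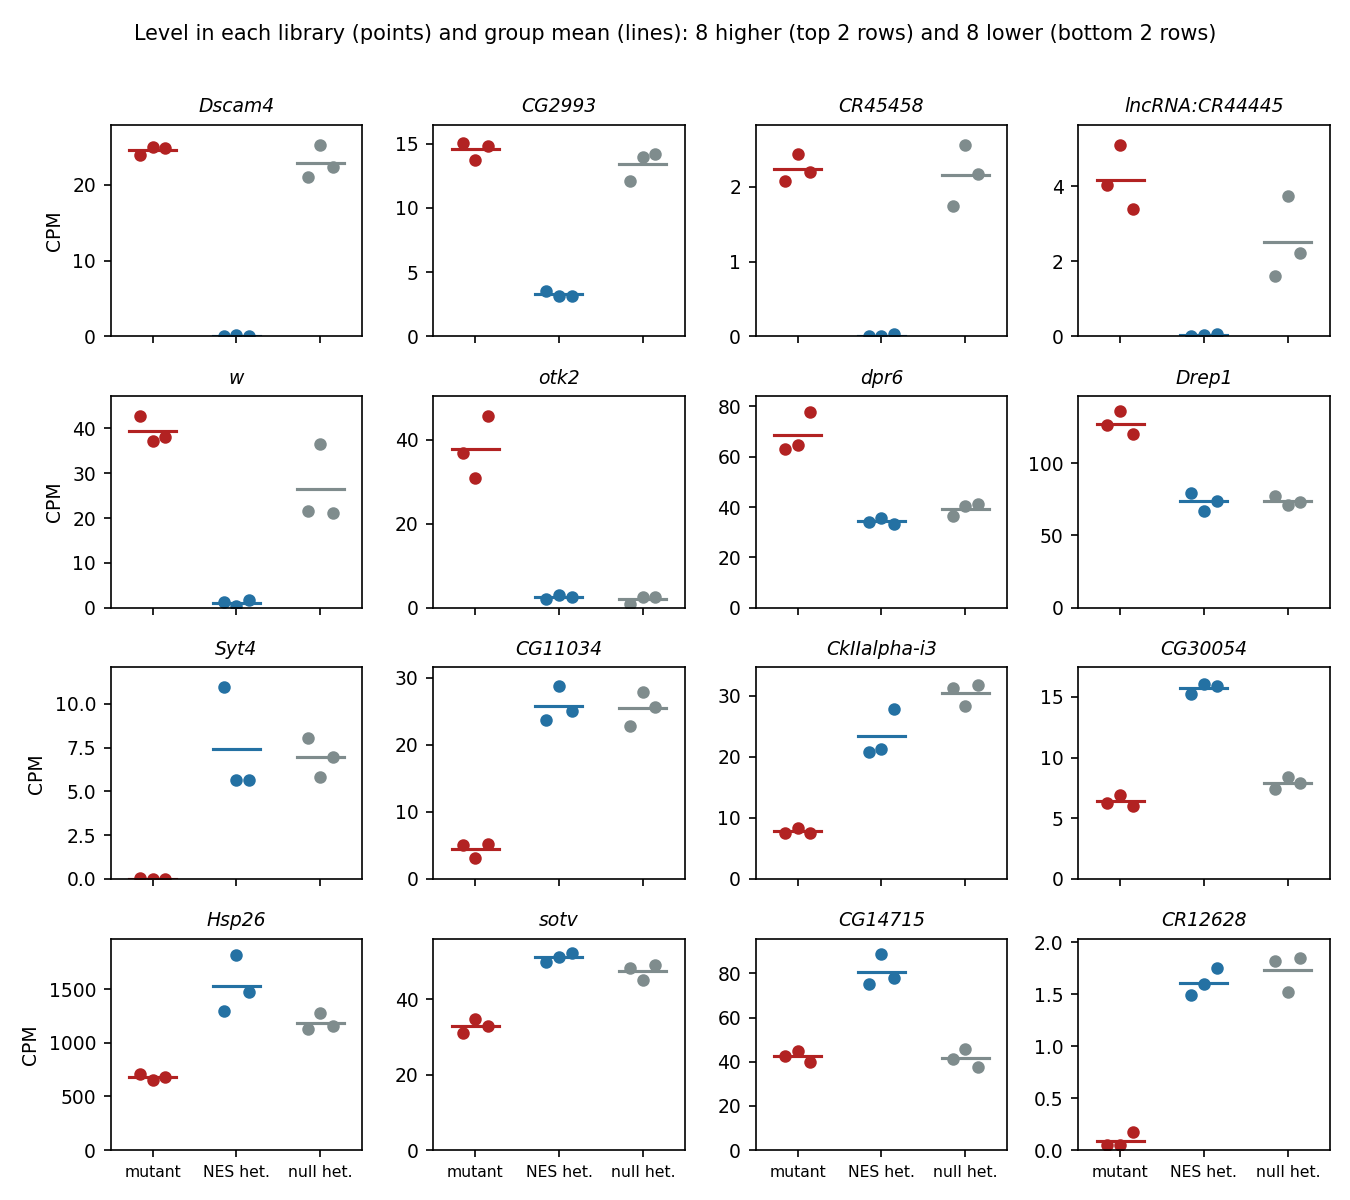
Level in CPM of 8 genes of low adjusted p in each direction, with a point for each of the 3 libraries of a group and a line at its mean, each panel from 0. The mutant (red) and NES heterozygote (blue) never overlap, while the null heterozygote (grey) lies beside the mutant for Dscam4, CG2993 and CR45458 and beside the NES heterozygote for otk2, Drep1, Syt4 and CG11034.

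Syt4, a synaptotagmin that acts in vesicle release, was at 0.0468, 0 and 0 CPM in the mutant and 11, 5.63 and 5.65 CPM in the NES heterozygote. With 2 counts in the 3 mutant libraries against 774, this was a ratio of 452 with an exact 95% counting interval of 125 to 3740.2 (adjusted p = 0.00143), and the gene was called in 17 of 19 alternatives. Cadps, needed for release of dense core vesicles, was at 8.39, 8.56 and 5.38 and 16.3, 16.7 and 19.3 CPM (log2 fold change -1.23 with SE 0.22, adjusted p = 0.0478). Both were lower in the mutant, with no overlap. The other 4 tested synaptotagmins were not called, and Syt12 was at 0.912, 0.872 and 0.889 and 0.449, 0.267 and 0.0874 CPM (log2 fold change 1.72 with SE 0.59, adjusted p = 0.309).

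Itpr, the inositol trisphosphate receptor that lets calcium out of the endoplasmic reticulum, was higher in the mutant, at 106, 94.9 and 108 CPM against 59.2, 70.0 and 68.3 CPM (log2 fold change 0.65 with SE 0.11, adjusted p = 0.0399). The phospholipase C gene norpA, whose enzyme makes inositol trisphosphate in photoreceptors, was lower, at 89.9, 96.3 and 101 against 149, 139.9 and 151 CPM (log2 fold change -0.62 with SE 0.07, adjusted p = 0.00573). The norpA call was made in 18 of 19 alternatives and the Itpr call in 8. Membrane receptor genes were also among the calls. Dh44-R2, a receptor for a diuretic neuropeptide, was lower in the mutant (log2 fold change -3.20 with SE 0.50, adjusted p = 0.0289). Its mutant libraries held 0.491, 0.317 and 0.148 CPM and the NES heterozygote libraries 2.08, 4.12 and 2.68 CPM. The methuselah-like receptor gene mthl8 was lower too (log2 fold change -4.0 with SE 0.50, adjusted p = 0.00899), from 1.38, 2.13 and 1.37 to 0.164, 0.106 and 0.0247 CPM. Higher in the mutant were Neto, an auxiliary subunit gene of glutamate receptors (1.26, 1.93 and 1.63 against 0.112, 0 and 0.175 CPM, adjusted p = 0.0478), and the gustatory receptor gene Gr98b. Gr98b had 57 counts in the mutant and 0 in the NES heterozygote, at least 16.3-fold higher with a floor of 3 counts over the group (adjusted p = 0.0478). Both were near or under 2 CPM in every library.

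A pair of protein kinase genes and a gene named for a kinase were lower in the mutant. CkIIalpha-i3, named as an interactor of the casein kinase 2 catalytic subunit, was at 7.46, 8.35 and 7.58 CPM in the mutant and 20.9, 21.3 and 27.9 CPM in the NES heterozygote (log2 fold change -1.58 with SE 0.13, adjusted p = 0.00161). Nak, a kinase of clathrin-mediated endocytosis, was at 104, 107 and 117 and 159.9, 151 and 164 CPM (log2 fold change -0.54 with SE 0.08, adjusted p = 0.0296). The null heterozygote, at 93.9, 84.7 and 104 CPM, averaged below the mutant for Nak, and for CkIIalpha-i3, at 31.2, 28.4 and 31.8 CPM, it was above both groups. The casein kinase 1 gamma gene gish was the smallest of the lower calls, at 271, 287 and 279 and 334, 355 and 337 CPM (log2 fold change -0.29 with SE 0.05, adjusted p = 0.0491), and was called in 5 of 19 alternatives.

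The heparan sulphate polymerase gene sotv was at 31.2, 34.7 and 32.9 CPM in the mutant and 49.9, 51.3 and 52.4 CPM in the NES heterozygote (log2 fold change -0.64 with SE 0.07, adjusted p = 0.00467). Pxd, a heme peroxidase gene, was at 0.0234, 0 and 0.123 and 4.38, 6.4 and 2.39 CPM (log2 fold change -6.38 with SE 0.96, adjusted p = 0.0267). Both were lower in the mutant, and for Pxd the null heterozygote spanned 1.16, 4.48 and 1.34 CPM. None of the other 5 tested heme peroxidases was called, among them Pxt, a peroxidase needed for follicle maturation, at 1305 ± 51.7 and 1334 ± 30.6 CPM (SD, n = 3).

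The acyl-CoA synthetase family gene Acsf2 was at 28.5, 31.6 and 27.6 CPM in the mutant and 15.6, 16.5 and 16.2 in the NES heterozygote (log2 fold change 0.86 with SE 0.10, adjusted p = 0.00704). The fructose bisphosphatase gene fbp, of gluconeogenesis, was at 23.3, 25.6 and 27.5 and 16.9, 16.9 and 16.6 CPM (log2 fold change 0.60 with SE 0.10, adjusted p = 0.0389). Ndae1, a sodium-driven anion exchanger, was at 22.9, 16.1 and 14.9 and 3.54, 4.8 and 4.14 CPM (log2 fold change 2.11 with SE 0.25, adjusted p = 0.00704). All 3 differed with no overlap, and the null heterozygote means were 24.8, 24.4 and 8.02 CPM. The mitochondrial carrier gene Tpc2 was at 1.31, 1.14 and 1.56 and 0.169, 0.178 and 0.146 CPM (log2 fold change 3.0 with SE 0.47, adjusted p = 0.0289).

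Of 44 tested cytochrome P450 genes, 2 were called, both higher in the mutant, where 0.579% of all tested genes were called higher. Cyp6t3, which has been linked to ecdysone synthesis in the larva, was at 2.38, 1.61 and 2.39 and 0.0562, 0.0592 and 0.0874 CPM (log2 fold change 4.91 with SE 0.53, adjusted p = 0.00467), and Cyp4p1 was at 0.444, 1.11 and 0.79 and 0.0843, 0.0888 and 0.0874 CPM (log2 fold change 3.12 with SE 0.49, adjusted p = 0.0296). Of 29 tested glutathione transferases, which join glutathione to reactive compounds, 2 were called, both higher. GstE11 was at 24.5, 29.2 and 28.7 and 16.8, 15.1 and 13.3 CPM (log2 fold change 0.87 with SE 0.11, adjusted p = 0.0112). GstZ1 was at 23.2, 22.6 and 16.9 and 11, 12.9 and 10.5 CPM (log2 fold change 0.86 with SE 0.16, adjusted p = 0.0494). The families held 20 of 44 P450s and 13 of 29 transferases above 0, and medians of -0.12 and -0.05. GstD1 was not called, at 733 ± 12.2 and 885 ± 17.5 CPM (SD, n = 3, log2 fold change -0.27 (SE 0.06, adjusted p = 0.117)). Of 15 tested UDP-glycosyltransferases none was called by edgeR, and the lowest adjusted p was 0.189, for Ugt36E1.

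Drep1, whose protein holds back the nuclease that cuts DNA in dying cells, was at 126, 136 and 120.2 CPM in the mutant and 79.4, 67.2 and 74.2 CPM in the NES heterozygote (log2 fold change 0.79 with SE 0.08, adjusted p = 0.00334). Arc1, a gene of retrotransposon origin whose protein forms RNA-carrying capsids, was at 47.9, 48.8 and 60.7 and 23.5, 28.9 and 29.4 CPM (log2 fold change 0.95 with SE 0.12, adjusted p = 0.0123). For Arc1 the null heterozygote, at 86, 76.5 and 88.5 CPM, was above both. Tsr1, needed to mature the small ribosomal subunit, was higher, at 142, 142 and 135 against 112, 115 and 115 CPM, the smallest fold among the higher calls (log2 fold change 0.29 with SE 0.05, adjusted p = 0.0399). Polr1E, a subunit gene of the polymerase that makes ribosomal RNA, was lower, at 65.3, 71.4 and 69.4 against 87.4, 103 and 97.2 CPM (log2 fold change -0.48 with SE 0.09, adjusted p = 0.0487). Dph1, of the pathway that makes diphthamide on an elongation factor, was higher (log2 fold change 0.45 with SE 0.08, adjusted p = 0.0478). Tsr1 and Polr1E were thus called in opposite directions.

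The piRNA gene squ was at 62.4, 65 and 65.3 CPM in the mutant and 100.3, 93 and 95.8 CPM in the NES heterozygote (log2 fold change -0.59 with SE 0.11, adjusted p = 0.0478), and was called in 5 of 19 alternatives. It was the only call among 30 tested piRNA pathway genes, which silence transposons in the germline, where 0.393% of all tested genes were called lower. Of the 30, 14 lay above 0, against 50.4% of all tested genes. The kinetochore gene Kebab fell by 0.72 (SE 0.11, adjusted p = 0.0287), to 14.8, 14.6 and 14.8 CPM from 26.4, 22.2 and 24.3 CPM. Among 18 tested germline genes none was called, and the lowest adjusted p was that of pgc (0.0937). The largest difference among them was that of bam, the switch gene for germline cyst differentiation, at 32.9, 32.1 and 31.6 CPM in the mutant and 75.6, 65.3 and 58.4 in the NES heterozygote (log2 fold change -1.04 with SE 0.23, adjusted p = 0.102). The groups did not overlap for bam, and the null heterozygote was at 43.4, 23.7 and 49.1 CPM.

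Many calls fell on genes with no name beyond an annotation number. CG11034 was at 5.03, 3.09 and 5.26 CPM in the mutant, 23.7, 28.7 and 25 in the NES heterozygote and 22.9, 27.9 and 25.6 in the null heterozygote, so the mutant alone was low (log2 fold change -2.53 with SE 0.20, adjusted p = 0.00143). CG2993 was at 15.1, 13.8 and 14.8, 3.57, 3.17 and 3.15 and 12.1, 14 and 14.2 CPM in the same order, so the NES heterozygote alone was low (log2 fold change 2.14 with SE 0.12, adjusted p = 0.000252). CG30054 was at 6.29, 6.95 and 5.97, 15.2, 16.1 and 15.9 and 7.43, 8.4 and 7.93 CPM, so the NES heterozygote alone was high (log2 fold change -1.30 with SE 0.11, adjusted p = 0.00238). CG14715 showed the pattern of CG30054, at 42.8, 44.9 and 40.0, 75, 88.6 and 77.8 and 41.3, 46 and 37.5 CPM (log2 fold change -0.92 with SE 0.10, adjusted p = 0.00467). CG31075 was high in the mutant alone, at 75.4, 86.9 and 82, 45.1, 35.3 and 41.3 and 34.7, 38.9 and 39.9 CPM (log2 fold change 1.0 with SE 0.11, adjusted p = 0.00457). These 5 were called in at least 18 of 19 alternatives.

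Transcripts at or near 0 in 1 group were frequent. CG8851 and CG33655 had no counts in the NES heterozygote and rose in the mutant by at least 119-fold (CG8851) and at least 28.5-fold (CG33655), taking a floor of 3 counts over the group for the other genotype (adjusted p = 0.00801 and 0.0267). Mutant levels were 4.16, 3.12 and 3.01 CPM for CG8851 and 0.631, 0.555 and 1.28 CPM for CG33655. CG17264 rose by 3.96 (SE 0.49, adjusted p = 0.00899), to 6.73, 5.34 and 4.15 CPM from 0.646, 0.237 and 0.146. In the opposite direction CG10962 was at 0.0701, 0.185 and 0.666 CPM in the mutant and 9.66, 5.6 and 8.16 in the NES heterozygote (log2 fold change -4.66 with SE 0.64, adjusted p = 0.016). CG9701 was at 0, 0.0793 and 0.0247 and 0.646, 0.829 and 0.408 CPM (adjusted p = 0.0478). Acp36DE, known as a seminal fluid protein gene, had 3 counts in the mutant against 50, a ratio of 19.5 with an exact 95% counting interval of 6.29 to 97.6 (adjusted p = 0.0478). Fbp2, a fat body protein gene, had 66 counts in the mutant and 1 in the NES heterozygote, a ratio of 56.5 with an exact 95% counting interval of 9.79 to 2265 (adjusted p = 0.0351). The mutant values of Fbp2 were 0.771, 0.238 and 0.592 CPM, highest in the 2 libraries with digestive tract transcripts. The null heterozygote held Fbp2 at 0.237, 0.324 and 0.203 CPM, where the digestive tract sum was 2.11, 0.779 and 0.329 CPM. A link between these values was not tested. Of 11 fat body genes 5 were tested. The summed level was 221 to 259 CPM in the mutant and 205 to 247 in the NES heterozygote. Most of this sum came from bmm, Lpin and apolpp, with log2 fold changes of 0.09, 0.10 and -0.11. FASN2 went the other way from Fbp2, at 0.281, 0.872 and 0.222 CPM in the mutant and 0.646, 0.237 and 2.1 CPM in the NES heterozygote. The groups overlapped for FASN2 (log2 fold change -1.12 with SE 0.87, adjusted p = 0.607). Among the untested ones, Fbp1, Lsp1beta, Lsp1gamma and AkhR were highest in mutant replicate 1 of the 6 libraries compared (0.327, 0.561, 0.21 and 0.164 CPM). Lsp2 had counts only in NES heterozygote replicate 2 of these libraries (0.0592 CPM), and Lsp1alpha was at 0 throughout.

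Noncoding genes and pseudogenes were 12 of the 84 calls, 8 higher and 4 lower. The pseudogene CR45458 had 270 counts in the mutant and 1 in the NES heterozygote, a ratio of 231 with an exact 95% counting interval of 41.1 to 9161. A further pseudogene, CR33319, had 208 against 2, a ratio of 89 with an exact 95% counting interval of 24.3 to 739.9, and the noncoding lncRNA:CR44445 had 502 against 3, a ratio of 143 with an exact 95% counting interval of 48.7 to 697. Their adjusted p values were 0.00143, 0.00629 and 0.00259. All 3 were thus almost undetected in the NES heterozygote, while the null heterozygote averaged 2.16, 0.64 and 2.52 CPM. By contrast lncRNA:CR32368 was high in the mutant alone, at 8.53, 6.56 and 4.74 CPM against 0.393, 0.0296 and 0.146 in the NES heterozygote and 0.264, 0.13 and 0.0253 in the null heterozygote (log2 fold change 5.09 with SE 0.77, adjusted p = 0.0267). The pseudogene CR12628 was low in the mutant alone, at 0.0468, 0.0529 and 0.173 CPM against 1.49, 1.6 and 1.75 and 1.82, 1.52 and 1.85 CPM (log2 fold change -4.10 with SE 0.46, adjusted p = 0.00547). Reads of a pseudogene can be shared with its parent gene, so these values are uncertain. The lower lncRNA:CR43836 (log2 fold change -0.92 with SE 0.16, adjusted p = 0.0478) spans CG10962 on the same strand, so reads of these genes may not be told apart.

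The other called genes had smaller folds or low levels. Among the higher ones, the pseudogene CR14033 rose by 0.95 on a log2 scale, to 45 ± 3.69 from 23.3 ± 1.73 CPM (SD, n = 3), and lncRNA:dntRL by 1.41. The protein-coding genes hwt, CG8852 and CG3397 rose by 3.19, 3.02 and 4.36, and the dynein heavy chain gene Dhc98D by 4.64, each from a mean under 1 CPM. The pseudogenes His-Psi:CR33867 and CR44906 rose by 4.06 and 2.86, also from under 1 CPM. CG5171, CG8419, CG17803, CG7460 and CG5080 rose by 1.72, 1.24, 0.99, 0.91 and 0.86. At higher levels and smaller folds were CG12112, CG14036, CG3788, CG9662, CG5953, CG4455, CG4554 and Tina-1, which rose by between 0.30 (Tina-1) and 0.74 (CG12112). Tina-1 was at 117, 116 and 116 CPM in the mutant and 94.5, 96 and 93.1 in the NES heterozygote. On the lower side, the pseudogene CR40354 fell by 2.99, CG9380 by 1.75, CG2129 by 1.20 and CG6656 by 1.14. CG9586, CG30440, CR18217 and CG11811 fell by 0.90, 0.75, 0.48 and 0.43. CG9380 was at 3.16, 2.91 and 2.99 CPM in the mutant, 10.2, 12.1 and 8.19 in the NES heterozygote and 2.19, 1.65 and 1.06 in the null heterozygote, so the NES heterozygote alone was high.

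The level in the null heterozygote, whose libraries are on neither side of the comparison, is given as a description. On the scale log2(CPM + 0.1), its mean lay nearer the mutant than the NES heterozygote for 31 of the 50 higher genes (62%) and for 12 of the 34 lower genes (35.3%). Over all tested genes this share was 30.9%. Genes with the null heterozygote beside the mutant included Dscam4, CG2993 and w among the higher, and norpA, CG30054 and Moe among the lower. Those with it beside the NES heterozygote included otk2 and Drep1 among the higher, and Syt4 and CG11034 among the lower. These counts were not tested.

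**Figure D3:**
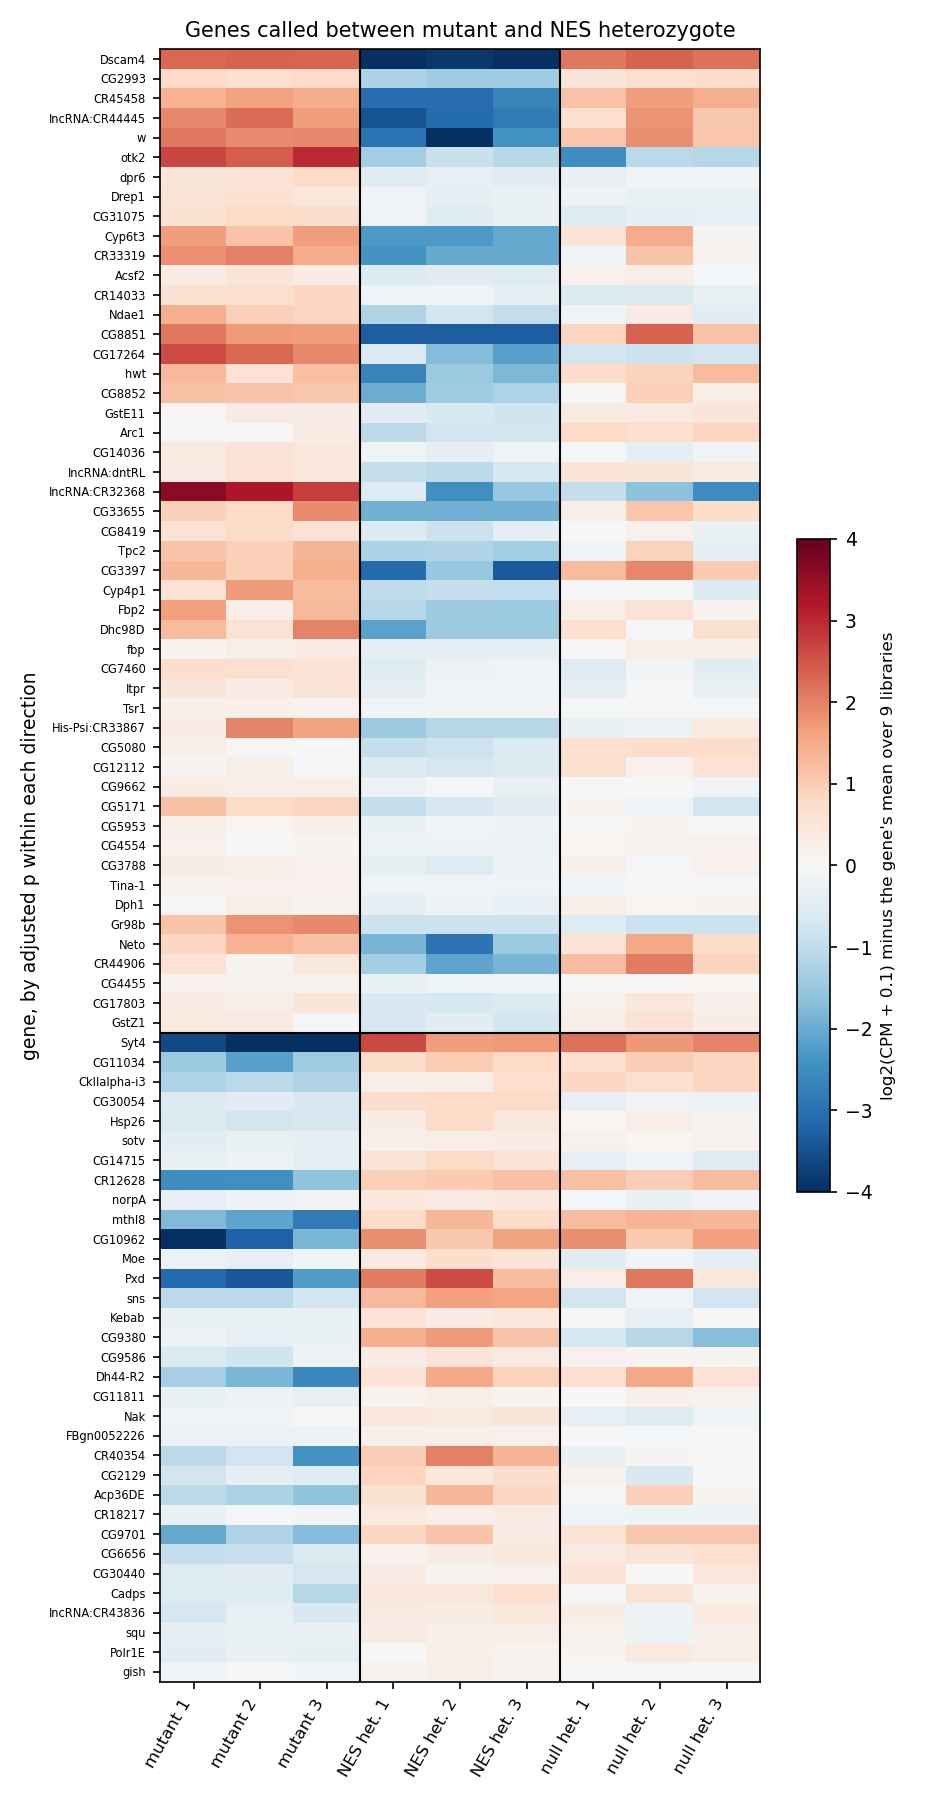
Colour gives log2(CPM + 0.1) minus the gene's mean over 9 libraries for all but 1 of the 84 called genes (rows, 50 higher above the line and the lower ones below it) in each library (columns). The mutant columns are redder than the NES heterozygote columns in the upper block and bluer in the lower block, and the null heterozygote columns match the mutant in some rows (by nearer mean, 31 of the 50 higher and 12 of all 34 lower genes) and the NES heterozygote in the others.

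Of 16 tested inducible heat shock genes, 15 had a log2 fold change below 0 and 1 was called, against a background of 0.393% of genes called lower. Hsp26, a small heat shock protein gene (chromosome 3L, 9376418 to 9377427, minus strand), was at 709, 649 and 682 CPM in the mutant and 1299.9, 1817 and 1472 CPM in the NES heterozygote (log2 fold change -1.17 with SE 0.12, adjusted p = 0.00456). All 3 mutant libraries lay below every NES heterozygote library. The call was made in 18 of 19 alternatives. Its relative Hsp27 was at 709.7, 713 and 719 and 875, 997 and 938 CPM and did not overlap, but was not called (log2 fold change -0.39 with SE 0.07, adjusted p = 0.0565). Hsp23 was at 12.6, 14.4 and 14.8 and 20.6, 81.9 and 35.1 CPM, with NES heterozygote replicate 2 far above the others (log2 fold change -1.72 with SE 0.44, adjusted p = 0.161). Hsp67Bc and Hsp67Ba, at about 6 CPM or less everywhere, overlapped between the groups, and Hsp22 had no count in any library. Hsp22 lies within CG4456 on the same strand, so reads of these genes may not be told apart and the lack of counts is uncertain. CG4456 was at 0.117 CPM or less in every library.

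The 6 nearly identical Hsp70 copies, which can share reads, are also given as a sum. It was 11.5, 21.2 and 7.87 CPM in the mutant and 23.7, 66.4 and 46.9 CPM in the NES heterozygote (log2 fold change -1.76 with SE 0.42, adjusted p = 0.13). The highest mutant and the lowest NES heterozygote library differed by less than the spread within either group. Hsp68, a close relative of Hsp70, was at 18.3, 39.4 and 7.33 and 37.8, 134 and 78.7 CPM and overlapped (log2 fold change -1.95 with SE 0.60, adjusted p = 0.246). In both groups replicate 2 was the highest library for Hsp68 and for the Hsp70 sum.

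Co-chaperone genes had smaller differences, none called. DnaJ-1, the fly Hsp40 gene, was at 204, 275 and 209.6 and 324, 336 and 329 CPM without overlap (log2 fold change -0.52 with SE 0.14, adjusted p = 0.184). The Hsc70 co-chaperone gene stv was at 9.02, 12.1 and 7.65 and 12.6, 19.5 and 14 CPM, also without overlap (log2 fold change -0.68 with SE 0.29, adjusted p = 0.427). The noncoding heat shock RNA gene lncRNA:Hsromega, at 75.7, 101 and 61.4 and 75.2, 119.9 and 102 CPM, and Hsp83, the Hsp90 gene, at 4616, 4665 and 4766 and 4400.0, 5205 and 4807 CPM, overlapped. In all, 15 of the 16 tested members had a log2 fold change below 0 (against 49.6% of all tested genes), 8 did not overlap with the mutant lower (against 11.4% of all tested genes), and the median was -1.16. The median was -0.55, with 3 of 16 above 0, without NES heterozygote replicate 2, and -0.37 without mutant replicates 1 and 3. The 6 Hsp70 copies count as 6 of these members. Without NES heterozygote replicate 2, Hsp83 and Hsp67Bc had log2 fold changes of 0.022 and 0.13, on the other side of 0.

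**Figure D4:**
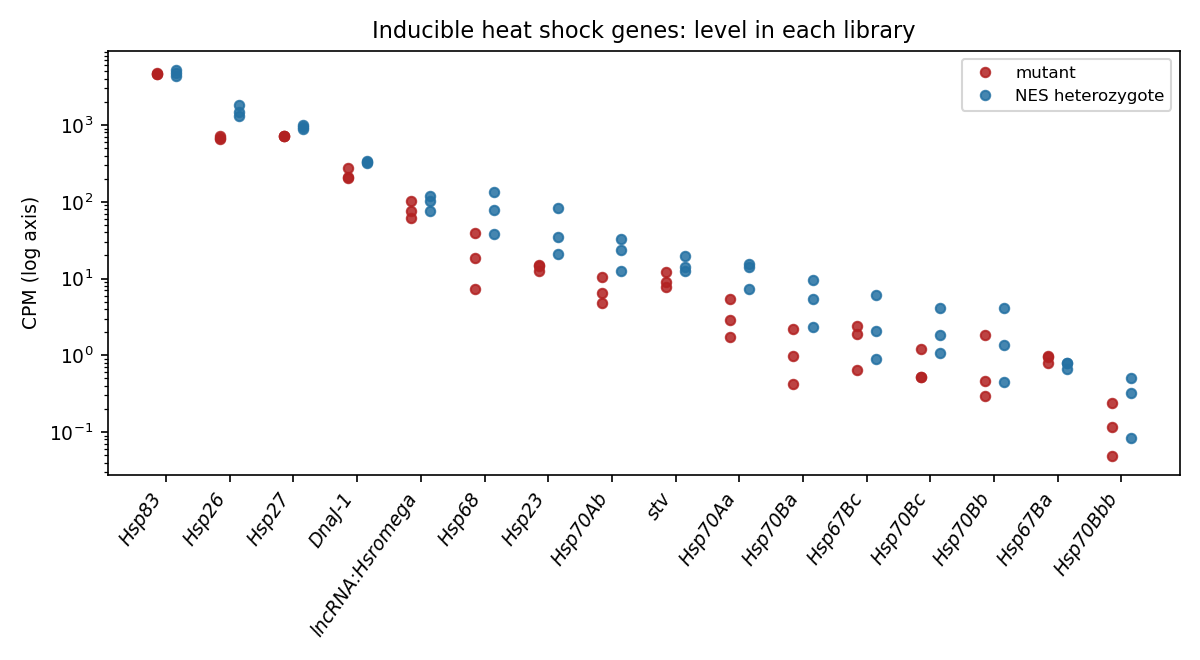
Level in CPM (log axis) of the 16 tested inducible heat shock genes in the 3 mutant (red) and 3 NES heterozygote (blue) libraries, ordered by NES heterozygote mean and not scaled by length. The mutant points lie below the NES heterozygote points without overlap for 8 genes, among them Hsp26, Hsp27 and DnaJ-1, and overlap for Hsp83 and Hsp68.

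Of 22 tested constitutive chaperones, which include the Hsc70 genes and the chaperonin subunits, 5 lay below 0, none was called and the median was 0.06. This median was 0.0014, with 11 of 22 above 0, without NES heterozygote replicate 1, and 0.14 without NES heterozygote replicate 2. Genes of heat shock factor and of polymerase pausing and elongation had 17 of 19 members below 0 (against 49.6% of all tested genes), with a median of -0.12 that was -0.18 without mutant replicate 2 and -0.036 without mutant replicates 1 and 3. Groups did not overlap for 3 of the 19, near the 11.4% of all tested genes. The lowest adjusted p there was 0.399, for spt4, at 36.4 ± 2.5 and 42.3 ± 0.463 CPM (SD, n = 3). Genes of mRNA export had 17 of 20 below 0 and a median of -0.09, with a lowest adjusted p of 0.481 for e(y)2. Without NES heterozygote replicate 1, 5 of these 20 lay above 0 and the median was -0.079. Without mutant replicates 1 and 3, 8 of the 20 lay above 0 and the median was -0.059. Neither list had a called member by edgeR.

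All 34 tested DNA replication and cell cycle genes had a log2 fold change below 0, with a median of -0.23, and 14 of them did not overlap, against 11.4% of all tested genes with the mutant lower. None was called. The mitotic kinase gene aurA, at 77.2, 85.4 and 79.1 CPM in the mutant and 106, 91.1 and 96.8 CPM in the NES heterozygote, had the lowest adjusted p (log2 fold change -0.28 with SE 0.09, adjusted p = 0.276). Levels of PCNA, the sliding clamp of DNA polymerase, were 392, 373 and 376 and 452, 419 and 439.7 CPM (log2 fold change -0.20 with SE 0.09, adjusted p = 0.433). The summed level of the list was 11237 to 12407 CPM in the mutant and 12598 to 14914 CPM in the NES heterozygote. Cytosolic ribosomal protein genes had 78 of 79 above 0, a median of 0.12, 25 that did not overlap with the mutant higher (13.5% of all tested genes) and none called.

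Lists of somatic cells had most members above 0, with no call by edgeR. All 18 other eggshell genes, mainly of the vitelline membrane, lay above 0 with a median of 0.51, as did all 9 chorion genes with a median of 0.21. The groups overlapped for every chorion gene, for example Cp36 at 4183, 2871 and 4207 and 2749.8, 4843 and 3218 CPM, and for 15 of the 18 other eggshell genes. Without NES heterozygote replicate 1, the library with the least eggshell RNA of these 6, the other eggshell median was 0.25 with 17 of 18 above 0, and the chorion median was -0.038 with 4 of 9 above 0. Without NES heterozygote replicate 2 these medians were 0.90 and 0.44. The chorion median was 0.055 without mutant replicate 1 and 0.39 without mutant replicate 2. Without mutant replicates 1 and 3 the medians were 0.063 for the other eggshell genes and -0.33 for the chorion genes. Follicle cell genes had 17 of 23 above 0 and a median of 0.38, and tj was at 175, 131 and 153 and 64.6, 146 and 95 CPM. Muscle sheath genes had 20 of 22 above 0 with a median of 0.47. The follicle cell median was 0.22 without NES heterozygote replicate 1, and the muscle sheath median was 0.28 without that library and 0.24 without mutant replicate 1. Without mutant replicates 1 and 3 they were 0.10 and 0.056. Among them Msp300, a giant spectrin-repeat protein gene of muscle nuclei, was at 48.6, 36.9 and 49.2 and 20.7, 21.9 and 28.3 CPM (log2 fold change 0.93 with SE 0.18, adjusted p = 0.0623), and bt, a projectin gene of the sarcomere, at 20.1, 17.8 and 18.8 and 8.51, 8.88 and 12.9 CPM (log2 fold change 0.90 with SE 0.21, adjusted p = 0.117).

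Of 26 tested genes of the cell cortex that work with Moesin, 17 lay above 0, the median was 0.06 and none was called. The lowest adjusted p was that of flw, a protein phosphatase 1 catalytic gene whose enzyme switches Moesin off, at 80.7, 86.1 and 79 CPM in the mutant and 102, 99.2 and 105 in the NES heterozygote (log2 fold change -0.31 with SE 0.06, adjusted p = 0.0692). Mer, the Merlin gene and closest relative of Moe, was at 107, 111 and 106 and 125, 108 and 115 CPM (log2 fold change -0.10 with SE 0.10, adjusted p = 0.655). Slik, the kinase that phosphorylates Moesin, was at 251, 196 and 251 and 153, 242 and 186 CPM (log2 fold change 0.27 with SE 0.28, adjusted p = 0.681). The groups overlapped for both.

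**Figure D5:**
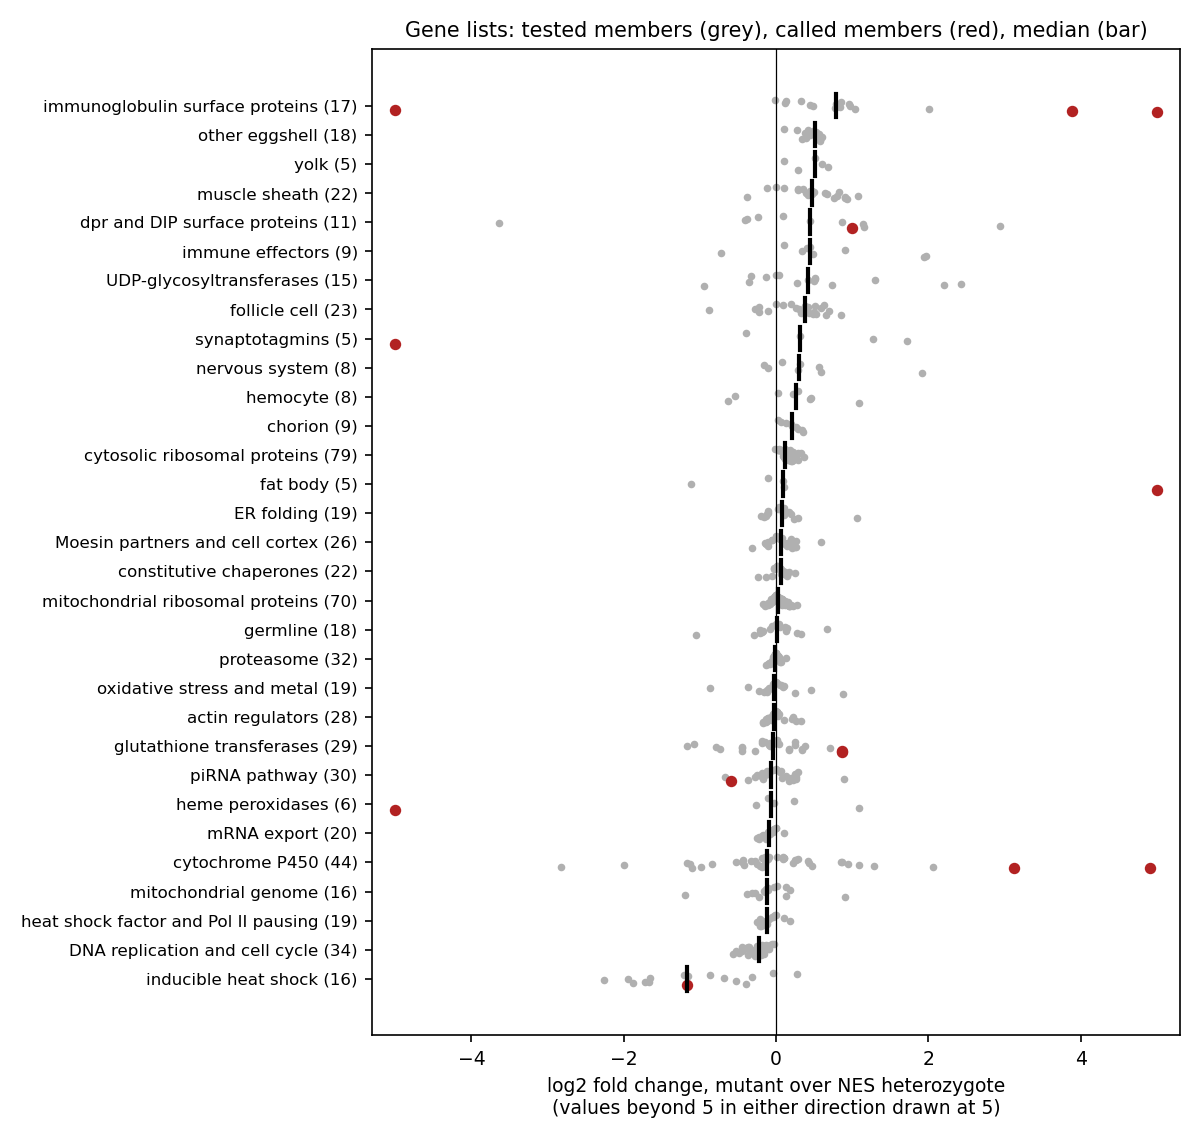
Log2 fold change of mutant over NES heterozygote for the tested members of each list with at least 5 (number in brackets), drawn as grey points, called members in red and the list median as a bar, and values beyond 5 in either direction drawn at 5. Medians run from -1.16 for inducible heat shock genes to 0.79 for immunoglobulin surface proteins, and most lists have no called member. The lists were chosen with earlier results of these data known.

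By position, the share of tested genes called was 1.76% on chromosome arm 2L (26 of 1481), 1.18% on 2R (20 of 1696), 0.801% on 3L (13 of 1623), 0.684% on 3R (14 of 2048) and 0.601% on X (9 of 1497). The share on the X chromosome, which carries the Moe alleles, was thus the lowest of these arms. Within 100 kb of another called gene lay 15 of the 83 called genes with a position (18.1%), and 14.7% of the other tested genes lay that near to a called gene. The pairs included CG8851 with CG8852, otk2 with Drep1, fbp with CR44906, Tpc2 with Tina-1, and Acsf2 with CR14033, while Moe, CG10962 and lncRNA:CR43836 formed a trio on X. Members of each of these pairs and of the trio were called in the same direction. The closest neighbours other than the overlapping genes were CG8851 and CG8852, 2.58 kb apart, at 2.29, 2.25 and 2.12 and 0.169, 0.296 and 0.35 CPM for the latter. No test was made of these counts.

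Across the 19 alternatives, 39 of the 84 genes were called in at least 10, 31 in at least 15 and 16 in at least 18. The last set included Dscam4, CG2993, w, otk2, dpr6, Drep1, CG31075 and Acsf2 among the higher genes, and CG11034, CkIIalpha-i3, CG30054, Hsp26, sotv, CG14715 and norpA among the lower. With only the 6 libraries compared in the fit, 145 genes were called, 80 of them among the 84.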

How the data were processed

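Per the labels' protocols, TRIzol RNA went into stranded TruSeq mRNA libraries, sequenced on an Illumina HiSeq. HISAT2 2.0.4, HTSeq, Trimmomatic 0.36, SAMtools 0.1.19 and FastQC appear in the submitters' processing notes, with build BDGP6. Which annotation release and strand setting were used, and how reads with several positions were handled, is not given in the sources used here, so overlapping, antisense and near-identical genes are uncertain. The authors deposited raw read counts per gene, not normalized. Symbols and positions came from the BDGP6.54 annotation, which holds 17252 of the 17558 identifiers; the other 306, with 5% of counts, are not named, and 1 of them was called (lower).

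Counts were filtered with filterByExpr (minimum count 10, minimum total 15), scaled by TMM and tested with edgeR 4.0.16 in R 4.3.3 by the quasi-likelihood test on all 9 libraries, with 1 coefficient per genotype. The common dispersion was 0.0403. Standard errors were taken as the log2 fold change's size over the square root of F. Ratios to 1 to 3 counts have exact binomial intervals, and ratios to 0 counts use a floor of 3; both cover counting error only. The members, gene lists and tests were chosen with earlier results of these data known. Named by rule were Moe, w, called genes, inducible heat shock genes and, from each list, at most 4 members with the lowest adjusted p. The genes osk, tj, Cp36, Mer, Slik, kirre and rst fall outside it and were chosen after their values were seen. The same holds for the fat body genes apolpp, AkhR, Fbp1, Lsp1alpha, Lsp1beta, Lsp1gamma and Lsp2. Lists were described by counts and medians, with no set test. The procedure was tested on simulated data. The simulated counts varied independently for each gene, so they lack differences between replicates that many genes share. Chi-square per degree of freedom between replicates of a group was 17.5 or more, so no library duplicated another of its group. Libraries of different groups were not compared in this way. Alternatives included DESeq2 1.42.0. For 1 called gene no values are reported here; it stays in the counts.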

Additional observations from a re-analysis of the deposited data

How the results depend on the processing

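The count of 84 changed genes was 83, 77 and 81 with DESeq2's size factors, library size alone and TMM without eggshell, yolk and mitochondrial genes, and no alternative moved the median of all genes by more than 0.0278 on the log2 scale. It was 63 with no low-count filter, 27 with a mean of at least 5 CPM, 145 with only the 6 libraries compared and 345 with DESeq2. With the replicate number as a block (replicate block) it was 34. The numbers pair no samples in the labels, and deviations of same-numbered mutant and NES heterozygote libraries correlated at -0.447, -0.531 and 0.0275. Leaving out 1 library gave 28 to 259. Without null heterozygote replicates 1 and 3, or without mutant replicates 1 and 3, both chosen after seeing the data and leaving 1 library in that group, which is assumed to vary like the others, it was 124 and 2.

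Moe kept its direction in all 19 alternatives. Its log2 fold change was -0.84 to -0.68 with 1 library left out, -0.74 with a mean of at least 5 CPM (adjusted p = 0.0514) and -0.85 without mutant replicates 1 and 3 (adjusted p = 0.522). Adjusted p over all alternatives ran from 1.9e-08 to 0.522. None of the 84 genes changed sign in a fit that tested it. With 1 library left out, Hsp67Bc ran from -1.30 to 0.135 and Hsp83 from -0.0954 to 0.0223, both above 0 without NES heterozygote replicate 2, and lncRNA:Hsromega was at 0.0304 without mutant replicates 1 and 3. The cause was not tested in any case. The number of libraries a group, 3, limits the precision of every value.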

Other observations

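Genes of metal handling and protein folding outside the heat shock lists had no call by edgeR. Among 19 tested genes of oxidative stress and metals, MtnA, a metallothionein gene, had the lowest adjusted p, at 45.9, 40.7 and 39 CPM in the mutant and 18.7, 26.6 and 23 CPM in the NES heterozygote, without overlap (log2 fold change 0.88 with SE 0.19, adjusted p = 0.0953). Among 19 tested genes of folding in the endoplasmic reticulum, 13 lay above 0. Edem1, which helps to send misfolded glycoproteins to degradation, was at 68.7, 68.6 and 68.5 and 60.1, 59 and 55.8 CPM (log2 fold change 0.24 with SE 0.06, adjusted p = 0.122). Its relative Edem2 was at 82.2, 73.3 and 86.1 and 26.2, 54 and 35.9 CPM (log2 fold change 1.06 with SE 0.27, adjusted p = 0.149). The mutant was higher in every library for both.

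Markers of other tissues were low or uncalled. The blood cell list had 6 of 8 tested members above 0, against 50.4% of all tested genes. Pxn, the peroxidasin gene of the extracellular matrix, was at 4.04, 3.57 and 3.41 and 1.6, 1.54 and 2.01 CPM (log2 fold change 1.10 with SE 0.26, adjusted p = 0.123). The members below 0 were PPO3 and PPO2. PPO3 was lower without overlap, at 5.05, 4.18 and 3.7 and 6.77, 7.2 and 6.06 CPM (log2 fold change -0.63 with SE 0.27, adjusted p = 0.429). PPO2 overlapped (log2 fold change -0.54). The nervous system list had 6 of 8 above 0, with cpx, the complexin gene, at 8.88, 3.17 and 2.69 and 1.26, 1.45 and 1.2 CPM (log2 fold change 1.91 with SE 0.46, adjusted p = 0.13). Immune effectors had 8 of 9 above 0, with PGRP-SB1, a secreted peptidoglycan recognition protein gene, at 0.631, 0.502 and 0.346 and 0.112, 0.0888 and 0.175 CPM (log2 fold change 1.95 with SE 0.48, adjusted p = 0.145). The digestive trypsin gene alphaTry was at 2.48, 0 and 5.04 CPM in the mutant and at 0 in every NES heterozygote library (adjusted p = 0.372). None of these genes was called.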
